A study of Mus musculus with 4 samples.

Results

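The 527 regions described here are the wide peaks of an ALaP-seq peak list that lie outside the replication-dependent histone gene clusters. They are the autosomal peaks of 800 bp or more that overlap no window of 2 kb either side of a gene whose symbol starts with Hist1, Hist2, Hist3 or Hist4 in the GENCODE M21 annotation, and they were selected on their width alone. The list holds 26496 peaks in all, of which 26186 are autosomal and outside these windows, so the wide peaks make up 2.01% of that set. The remaining 25659 peaks, all under 800 bp, are called the narrower peaks and serve as the comparison.

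ALaP-seq marks chromatin close to PML bodies, which are nuclear structures built by the PML protein. APEX, a peroxidase, is joined to PML by a knock-in and attaches biotin to nearby chromatin when hydrogen peroxide is given. The series holds 2 samples treated with hydrogen peroxide (H2O2+) and 2 negative controls without it (H2O2-). All 4 are E14 mouse embryonic stem cells with the APEX-PML knock-in, grown in serum with leukemia inhibitory factor, PD0325901, which inhibits MEK, and CHIR99021, which inhibits GSK3, so the controls carry the knock-in too. The labels do not say whether the knock-in line is a clone. The peak list carries no height and names no sample, so no H2O2+ value could be set against an H2O2- value, no spread between replicates exists here and the depth is unknown. That any single peak owes its place in the list to a nearby PML body was not tested.

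Small nuclear RNAs such as U1, U2, U4 and U5 form the core of the spliceosome, and U7 takes part in forming the ends of replication-dependent histone mRNAs. The U3 and U8 small nucleolar RNAs act in ribosomal RNA processing. Their genes are short, without introns, and are transcribed by RNA polymerase II from promoters with an upstream octamer-containing enhancer and a proximal element, whereas the U6 and transfer RNA genes use RNA polymerase III. PML bodies are known to lie beside transcribed loci, and Cajal bodies and histone locus bodies, which gather at small nuclear RNA and histone genes, are further nuclear bodies of this kind.

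The stretches below are printed from 5 wide peaks at genes of this class, since such starts set the wide peaks apart from the narrower ones. They were chosen after their values were seen. Each was read from GRCm38, runs 5′ to 3′ on the strand of the RNA, lies wholly inside its peak and ends 20 bases into the RNA. Capitals mark those 20 bases and any match upstream to the octamer core TTTGCAT on either strand. Snord118 does have a match within 300 bp upstream, but its stretch stops at the peak edge, 226 bp upstream, and does not contain it.
Gm24497 (U2), chr1:72243953-72244232, plus strand: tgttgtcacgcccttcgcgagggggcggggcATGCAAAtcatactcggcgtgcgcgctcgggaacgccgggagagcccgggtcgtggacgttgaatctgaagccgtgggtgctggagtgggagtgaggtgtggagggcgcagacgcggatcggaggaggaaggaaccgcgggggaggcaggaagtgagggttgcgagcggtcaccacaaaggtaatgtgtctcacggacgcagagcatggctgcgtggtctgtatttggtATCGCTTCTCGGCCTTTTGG
Rnu5g (U5), chr9:65201822-65202034, minus strand: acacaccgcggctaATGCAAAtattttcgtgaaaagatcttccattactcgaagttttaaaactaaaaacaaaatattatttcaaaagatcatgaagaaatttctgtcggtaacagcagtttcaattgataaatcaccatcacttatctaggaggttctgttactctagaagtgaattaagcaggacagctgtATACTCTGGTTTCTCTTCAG
Rnu7 (U7), chr6:124741267-124741546, minus strand: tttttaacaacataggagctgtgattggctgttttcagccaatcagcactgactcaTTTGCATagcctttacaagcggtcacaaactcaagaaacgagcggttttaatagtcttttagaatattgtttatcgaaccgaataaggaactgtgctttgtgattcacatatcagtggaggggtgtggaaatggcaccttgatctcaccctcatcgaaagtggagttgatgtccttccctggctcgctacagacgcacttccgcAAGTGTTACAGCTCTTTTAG
Snord118 (U8), chr11:69073200-69073445, plus strand: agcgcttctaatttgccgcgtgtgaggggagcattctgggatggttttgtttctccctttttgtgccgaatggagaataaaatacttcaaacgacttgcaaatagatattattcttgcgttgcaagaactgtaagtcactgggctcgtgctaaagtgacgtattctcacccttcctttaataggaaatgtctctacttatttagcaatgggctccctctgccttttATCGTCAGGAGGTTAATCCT
Rnu1a1 (U1), chr11:87422659-87422886, plus strand: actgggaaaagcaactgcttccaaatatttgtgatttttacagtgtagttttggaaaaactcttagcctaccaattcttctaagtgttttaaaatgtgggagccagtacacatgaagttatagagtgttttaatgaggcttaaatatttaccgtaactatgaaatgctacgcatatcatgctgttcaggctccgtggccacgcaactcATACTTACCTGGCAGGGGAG

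The central 200 bp of 4 further wide peaks are given for contrast in base composition, with each CG in capitals. They come from a divergent coding promoter, a coding promoter with further wide peaks upstream, the pluripotency gene Tdgf1 and the locus with the most wide peaks.
Cbx5 and Hnrnpa1, chr15:103240050-103240249, plus strand: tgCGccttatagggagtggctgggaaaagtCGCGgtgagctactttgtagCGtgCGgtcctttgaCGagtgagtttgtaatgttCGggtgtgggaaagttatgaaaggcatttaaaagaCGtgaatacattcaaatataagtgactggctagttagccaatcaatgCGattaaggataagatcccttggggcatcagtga
Eif4a2, chr16:23107784-23107983, plus strand: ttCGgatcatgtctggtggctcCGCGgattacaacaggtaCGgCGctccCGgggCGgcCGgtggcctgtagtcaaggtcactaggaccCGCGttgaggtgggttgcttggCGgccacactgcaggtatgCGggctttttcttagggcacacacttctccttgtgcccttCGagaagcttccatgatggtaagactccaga
Tdgf1, chr9:110947600-110947799, minus strand: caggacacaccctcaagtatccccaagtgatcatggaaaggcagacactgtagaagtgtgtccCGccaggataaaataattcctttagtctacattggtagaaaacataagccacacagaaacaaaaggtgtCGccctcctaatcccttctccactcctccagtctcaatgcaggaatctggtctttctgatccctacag
Sfi1 intron, chr11:3156356-3156555, minus strand: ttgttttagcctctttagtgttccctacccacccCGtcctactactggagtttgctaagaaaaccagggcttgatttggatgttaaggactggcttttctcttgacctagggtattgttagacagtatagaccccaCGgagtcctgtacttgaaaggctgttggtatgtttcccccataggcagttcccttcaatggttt
The centres at Cbx5 and Hnrnpa1 and at Eif4a2 hold 9 and 13 CG, and those at Tdgf1 and Sfi1 hold 2 each.

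The wide peaks were mostly not far above the threshold, with a few much wider ones. The middle value was 937 bp, the quartiles were 851 and 1093 bp, and the extremes 800 and 12734 bp. The narrower peaks had a median of 219 bp. Together the wide peaks covered 559.9 kb, 7.603% of the summed length of both sets. The 33 wide autosomal peaks that the rule leaves out at histone genes had a median of 1639 bp, and 15 more wide peaks lay on chromosomes X and Y. Widths ran through the threshold without a gap, with 217 peaks from 800 to under 900 bp inside it and 370 from 700 to under 800 bp outside. At 800 bp stood peaks nearest to Nkx6-3 and inside Zfp536 and Pid1, and at 799 bp stood peaks at the start of the small nucleolar RNA host gene Snhg5, inside the helicase gene Ddx60 and at the start of Cd38.

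**Figure D1:**
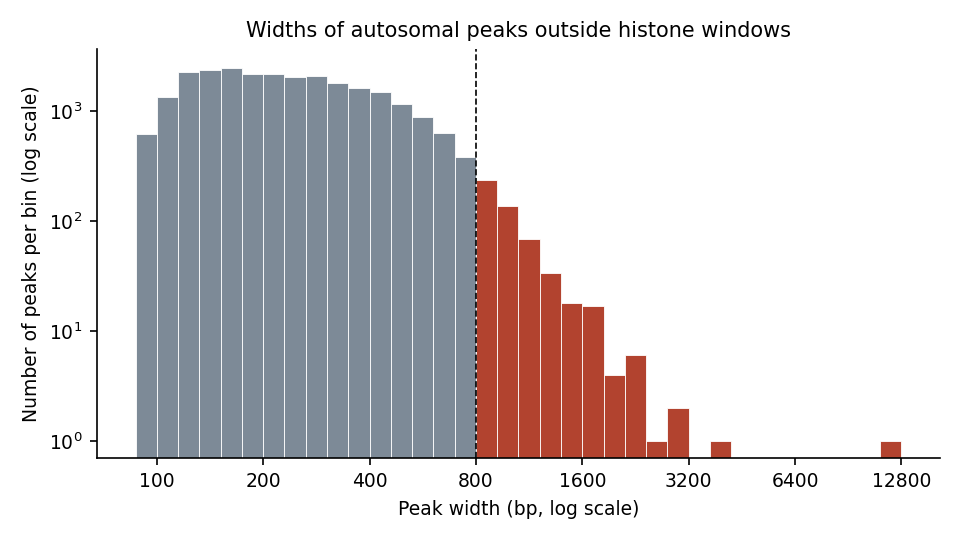
Number of autosomal peaks outside histone windows (vertical axis, log scale) by peak width in bp (horizontal axis, log scale). Red bars are the 527 wide peaks, grey bars the 25659 narrower ones, and the dashed line stands at 800 bp; the counts fall through the line without a step, and 1 peak of 12734 bp stands alone.

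The widest peak, of 12734 bp at chr9:123924523-123937256, lay between genes, 37802 bp from the nearest protein-coding start, that of the chemokine receptor gene Ccr1. Its sequence had 47.0% GC and a CpG observed/expected ratio of 0.344, and 19.5% of it was masked as repeat in the reference. The gap to the next listed peak was 54973 bp. The next was a peak of 3924 bp inside Ppp2r3d, at 59.9% GC and a CpG observed/expected ratio of 0.855, followed by one of 3192 bp beside Tcstv3, which marks the 2-cell-like state. A peak of 1878 bp lay 92782 bp from the start of Reep3, and one of 1803 bp lay 261594 bp from the start of Rab3c. Within introns, away from the loci described below, wide examples were those in Agrn (1798 bp), which encodes agrin, and in the transcriptional regulator gene Arid5b (1524 bp).

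By what lay at and around their centre, the wide peaks differed from the narrower ones in 3 of 10 features. Position was read at the midpoint and sequence in the central 200 bp, the same for every width, whereas the distance to another peak was the gap from edge to edge, which width can enter. The starts of genes other than protein-coding ones, within 1 kb, held the midpoints of 64 wide peaks (12.1%, exact 95% interval 9.48 to 15.2%) against 4.67% of narrower peaks (log2 odds 1.51, Fisher's exact test, two-sided, adjusted p = 7.59e-11). Another listed peak lay within 5 kb of 61.5% of wide peaks and of 46.6% of narrower ones (log2 odds 0.87, Fisher's exact test, adjusted p = 7.59e-11). Measured from midpoint to midpoint instead, another peak lay within this distance of 316 of the 527 wide peaks and of 45.7% of narrower ones (log2 odds 0.83, Fisher's exact test, adjusted p = 4.5e-10). A near-identical copy elsewhere in the genome, of the central 150 bp, was found for 9.87% of wide and 6.15% of narrower peaks (log2 odds 0.75, Fisher's exact test, adjusted p = 0.00329). By the same exact test, this last call ended when the threshold was moved to 600 bp (adjusted p = 0.424) or to 1000 bp (adjusted p = 0.0644). Adjustment was by Benjamini and Hochberg over the 10 features compared. Peaks are not replicates and neighbouring ones are not independent, so the p-values describe this list.

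The other 7 features did not pass the threshold, which does not show that they are alike. Protein-coding promoters, the 1 kb either side of a start, held 180 wide peaks (34.2%, interval 30.1 to 38.4%) against 32.4% of narrower peaks (Fisher's exact test, adjusted p = 0.497). CpG-island-like centres made up 33.8% of wide and 33.7% of narrower peaks (Fisher's exact test, adjusted p = 1.0). Introns held 29.4% and 30.4%, and the sequence between genes 31.3% and 29.4%. Exons outside promoters held 5.12% of wide and 7.78% of narrower peaks (Fisher's exact test, adjusted p = 0.0524), repeat-masked centres were at 12.9% and 10.7%, and divergent protein-coding gene pairs at 5.69% and 4.04% (adjusted p = 0.146).

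**Figure D2:**
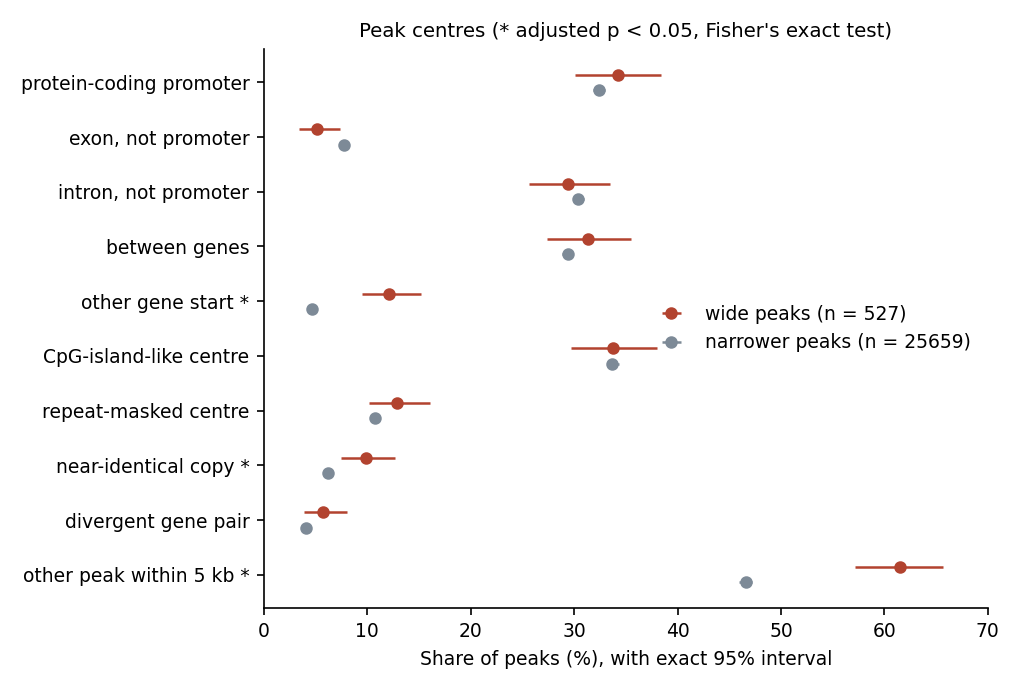
Share of wide peaks (red, n = 527) and narrower peaks (grey, n = 25659) with each feature, in percent, with exact Clopper-Pearson 95% intervals that reflect counting error alone. An asterisk marks the 3 features past an adjusted p of 0.05: other gene starts (12.1% and 4.67%), near-identical copies (9.87% and 6.15%) and a further peak within 5 kb (61.5% and 46.6%).

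Among finer width classes, the share at other gene starts stayed between 4.38 and 5.59% in the 4 classes under 800 bp. It was 8.98% from 800 to under 1000 bp, 16.0% from 1000 to under 1500 bp and 23.3% of the 43 peaks of 1500 bp or more. The share with another peak within 5 kb was 56.9%, 66.7% and 79.1% in the same 3 classes. Protein-coding promoters were most frequent in the classes from 400 to under 600 bp (39.2%) and 600 to under 800 bp (38.8%), and held 23.3% of the peaks of 1500 bp or more (interval 11.8 to 38.6%). These class shares are a description, with no test.

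**Figure D3:**
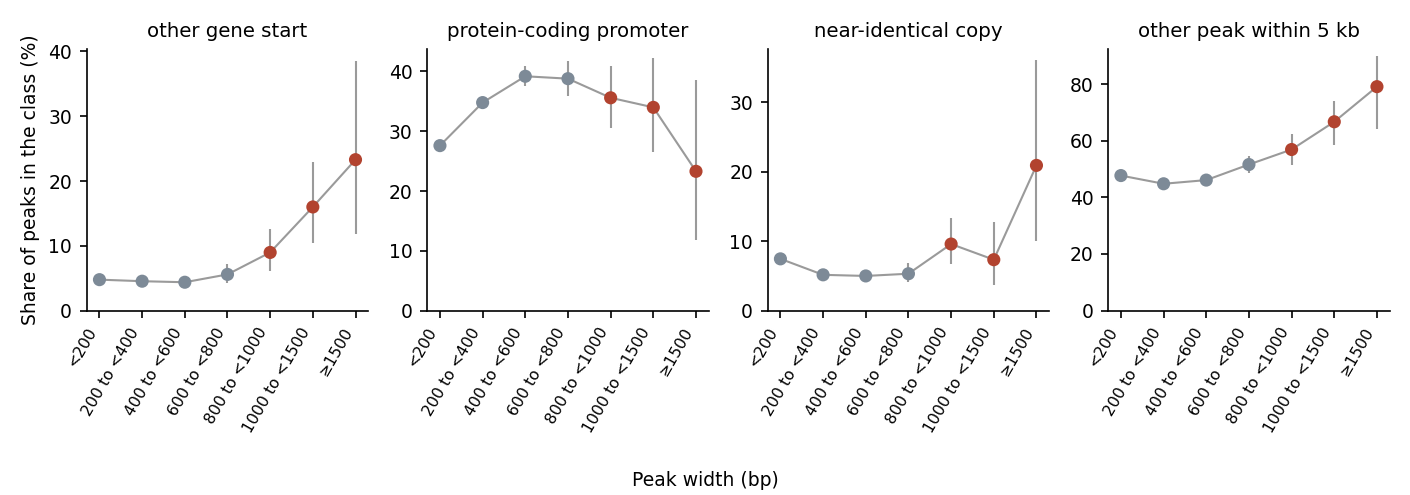
Share of peaks, in percent, with 4 features (1 panel each) in 7 classes of peak width in bp, with exact 95% intervals; red points are classes of wide peaks. Other gene starts go up from 8.98% to 23.3% across the 3 wide classes, while protein-coding promoters are highest from 400 to under 600 bp.

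Starts of small nuclear and nucleolar RNA genes held 27 of the 64 wide peaks at other gene starts. By type, 19 lay at a small nuclear RNA and 8 at a small nucleolar RNA, 3.61% and 1.52% of all wide peaks, against 0.0896% and 0.0779% of the narrower ones. Long intergenic noncoding RNAs held 15 (2.85% against 1.45%), pseudogenes 7, processed transcripts 6 and antisense RNAs 5 (0.949% against 0.904%). Without all peaks at starts of small nuclear, nucleolar and Cajal body RNAs, other starts held 35 of 494 wide peaks (7.09%) and 4.47% of narrower peaks (log2 odds 0.72, Fisher's exact test, adjusted p = 0.0279).

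Most genes of the RNA polymerase II class that had a peak had a wide one. The classes were set after the wide peaks had been seen, from RefSeq products, and so give a description. Among 2592 autosomal small RNA genes in RefSeq, 380 had a peak within 1 kb of the start and 44 had a wide one, which is 1.7% of all and 11.6% of those with a peak. The U1, U2, U3, U4, U5, U7, U8, U11 and U12 genes numbered 255. A peak lay at 36 of these and a wide peak at 28 (77.8% of the 36), formed by 27 distinct peaks. The median of the widest peak at the 36 was 1218 bp. By class, wide peaks lay at 5 of 5 U1 genes with a peak, 7 of 11 for U2, 5 of 5 for U3, 2 of 2 for U4, which share 1 peak, and 6 of 7 for U5. Rnu11 and Snord118 were the U11 and U8 genes with one, Rnu7 was 1 of 3 U7 genes, and Rnu12 had a peak of 579 bp.

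Transfer RNA genes and U6 genes stood differently. A peak lay at 245 of 386 transfer RNA genes, but a wide one at 4, formed by 2 peaks, and the median of the widest was 265 bp. Among 659 U6 genes, 18 had a peak and 1 a wide one, and that one is the peak of a neighbouring U3 gene, Rnu3b1. Many of the narrower peaks counted for U6 also lay wholly away from the start. Those at Gm24537 and Gm23421 began 980 and 960 bp past it, and that at Gm25794 ended 681 bp upstream. Whether such peaks belong to neighbouring genes was not tested, nor which of the 659 are intact genes. Rn7sk, the RNA that holds the elongation factor P-TEFb inactive, had a peak of 365 bp. The RNAs of RNase P, RNase MRP and telomerase had a peak at 3 genes and a wide one at 0, and the widest was 505 bp.

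**Figure D4:**
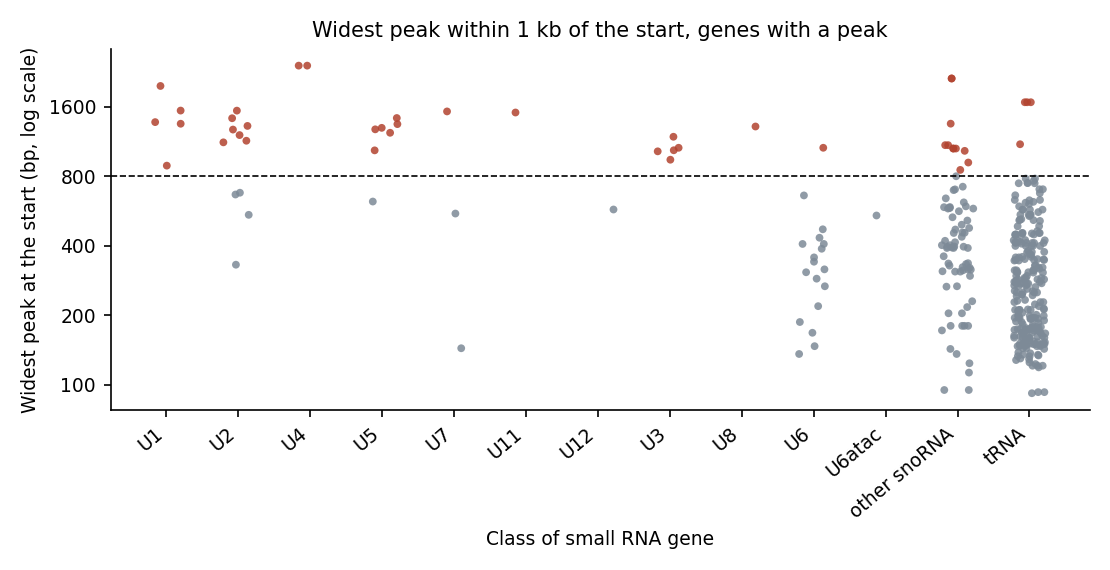
Width in bp (log scale) of the widest peak within 1 kb of the start for each autosomal small RNA gene with a peak, by class; the dashed line stands at 800 bp and red points are wide peaks. The classes from U1 to U8, on the left, lie mostly above the line, with medians of 1370 bp for U1, 1138 bp for U2 and 1275 bp for U5, and transfer RNA genes lie mostly below it, with a median of 265 bp.

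The widest of these peaks, of 2405 bp at chr5:115489056-115491460, spanned both U4 genes Gm24265 and Gm24407. A U1 gene on chromosome 3, Gm24830, had a peak of 1964 bp, a U2 gene on chromosome 12, Gm22973, one of 1536 bp, and Rnu7 and Rnu11 had peaks of 1524 and 1512 bp. Several stood in groups of RNA genes. On chromosome 11, from 87422659 to 87472514, 6 of the 8 listed peaks were wide, at the U1 genes Rnu1a1 (1370 bp) and Gm22068 (1537 bp) and the U3 genes Rnu3b1, Rnu3b2, Rnu3b3 and Rnu3b4 (942 to 1061 bp). A run of 4 U2 genes on chromosome 1 between 72226332 and 72256248 had wide peaks of 1120 to 1424 bp, and 3 U5 genes on chromosome 4 between 117189728 and 117211737 had peaks of 1034 to 1275 bp. These genes are multicopy families, and the sources used here do not say how reads that fit several copies were placed. The central 150 bp of the peak had a near-identical copy at 1 of the 28 genes. That stretch mostly lies past the RNA, so this count cannot show whether reads from the RNA sequence fit several copies. The RNA itself was repeat-masked over 0 to 43.5% of its length, with a median of 13.95%.

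The wide small RNA peaks reached mainly downstream. From the start, the peaks of the 28 genes extended a median of 1146.5 bp downstream, with a range of 811 to 2001 bp, although the RNAs are 62 to 218 bases long. Upstream they extended a median of 215 bp. The start lay inside the peak at 19 genes, and at the other 9 the peak began between 62 and 318 bp past the start. At Rnu2-10, for example, the peak ran from 95 to 1413 bp downstream, and at Rnu5g from 193 bp upstream to 1100 bp downstream. Downstream placement was not particular to wide peaks. At 8 genes of these classes the widest peak was a narrower one. It began 295 to 575 bp past the start at the U2 genes Gm23971, LOC115487916, Gm24950 and Gm26316 and at Rnu12. It reached mainly or wholly upstream at the U5 gene LOC115487699 and the U7 genes Gm22788 and LOC115488399. The octamer core TTTGCAT, on either strand within 300 bp upstream of the start, was present at 15 of the 28 genes with a wide peak, at 7 of 8 with only narrower peaks, and at 18 of 219 with none. Of the 219, 110 are U1 and 68 U7 entries, and whether they are intact genes was not examined. The contrast with them is thus not one of having a peak alone. All 7 U2 genes with a wide peak held it, as in the Gm24497 stretch above, and so did all 4 U2 genes with only narrower peaks, against 1 of 17 U2 genes without a peak. None of the 5 U3 genes with a wide peak held it.

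Wide peaks at protein-coding promoters were placed about evenly around the start. For the 148 with a single protein-coding start within 1 kb of the midpoint, the start lay inside the peak in 134 (90.5%). The peaks extended a median of 521 bp upstream and 464 bp downstream. Their midpoints were downstream of the start in 72 (48.6%), and those of 7176 narrower promoter peaks in 49.9%. CpG-island-like centres were found in 133 of the 180 promoter peaks (73.9%) and in 78.1% of narrower promoter peaks. Away from promoters and from other gene starts, the median GC content of the central 200 bp was 47.0% for 135 wide peaks between genes. It was 48.0% for 131 in introns, and 50.5% and 51.5% for the narrower peaks there.

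**Figure D5:**
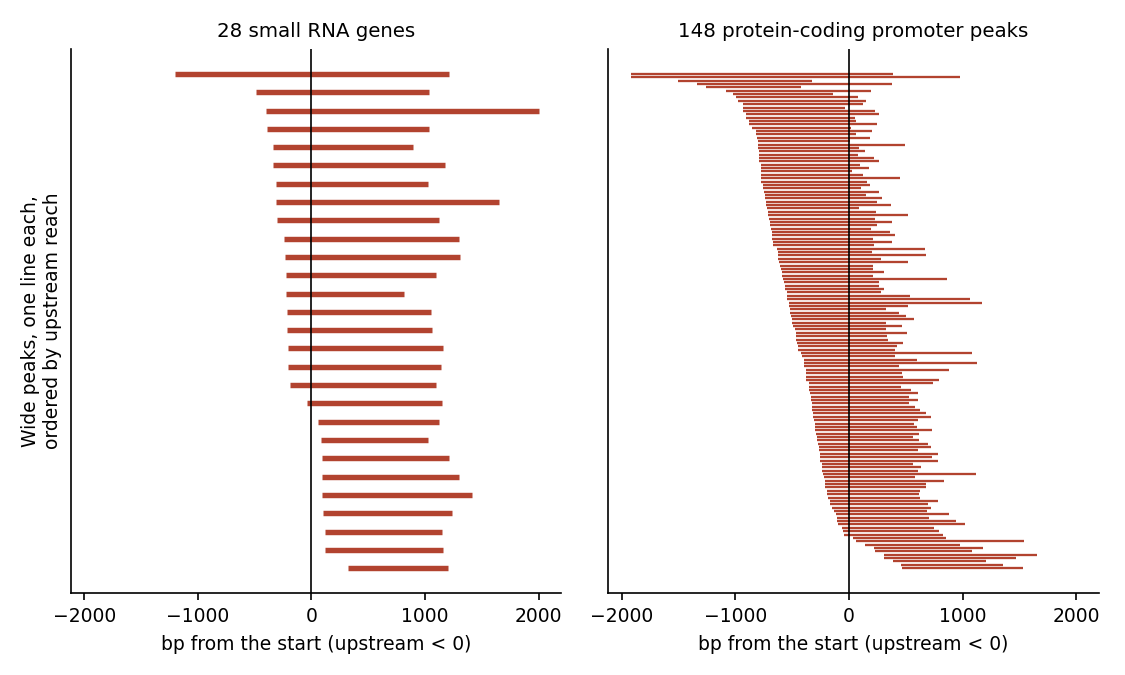
Extent of wide peaks in bp from the start of the gene (0, black line), 1 line per gene or peak, ordered by upstream reach, upstream to the left. Peaks at the 28 small RNA genes (left panel) reach a median of 1146.5 bp downstream and 215 bp upstream, and 148 protein-coding promoter peaks (right panel) reach a median of 464 bp downstream and 521 bp upstream.

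A wide peak shared at least 1 bp with the promoter window of 224 of 20740 autosomal protein-coding genes (1.08%), which is 2.69% of the 8327 genes with any promoter peak. Setting aside peaks with near-identical copies, the widest was that of Tcstv3 (3192 bp), which lay past the start at 120316878 on the plus strand, from 120317819. The next was a peak of 1927 bp at chr15:103239187-103241113 over the divergent starts of Cbx5, which encodes the heterochromatin protein HP1 alpha, and Hnrnpa1, a splicing regulator. The related pair Cbx3, which encodes HP1 gamma, and Hnrnpa2b1 shared a peak of 1646 bp on chromosome 6. Both divergent pairs thus held 1 wide peak over both starts. Near the end of chromosome 13 lay peaks at Nnt (1830 bp), a mitochondrial transhydrogenase, Zfp131 (1723 bp), Hmgcs1 (1704 bp), an enzyme of cholesterol synthesis, and Nim1k (1613 bp). Others among the widest were at Wls (1506 bp), which carries WNT proteins to the cell surface, Dmtn (1484 bp), Prdm15 (1440 bp), Polr2a (1298 bp), the largest subunit of RNA polymerase II, and Hmgb1 (1170 bp). Some wide promoter peaks also held a small RNA start, so the gene they belong to cannot be told apart. The peak at Grcc10 held Rnu7, that at Parp16 the U5 gene Gm25313 and that at Gtf3c6 the U3 gene Rnu3a. The peak at Eapp held the U1 gene Gm22513, that at Zbtb37 a SNORD74 gene and that at Sacm1l the transfer RNA gene n-TRacg2.

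Genes of RNA processing and translation often had peaks at their promoters and sometimes wide ones. Among genes for hnRNP and SR splicing factors and core splicing proteins, 56 of 69 had a promoter peak and 6 a wide one (10.7% of the 56, interval 4.03 to 21.9%), at Hnrnpa1, Hnrnpa2b1, Hnrnpa0 (1123 bp), U2af2 (830 bp), Hnrnpc (828 bp) and Sf3a2 (812 bp). The U2af2 peak ended 427 bp upstream of the start. Cytosolic ribosomal proteins had 4 wide peaks among 74 genes with a peak, at Rps19 (958 bp), Rps25, Rpl7l1 and Rps18. Genes named for translation factors had 3 among 56, at Eif4a2 (1349 bp), an RNA helicase of initiation, Eif1 (992 bp) and Eif2b4. Eif4a2 had further wide peaks of 894 and 811 bp at 7.41 and 4.39 kb upstream, and its own peak also reached to within 1 kb of Snord2. Mitochondrial ribosomal proteins had 1 among 68 (Mrps18b, 1037 bp), oxidative phosphorylation 2 among 75 (Cox6b2 and Ndufaf3), and the proteasome 0 among 32, against the 2.69% of all genes with a peak.

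Of the genes for PML body components, 20 of 24 had a promoter peak, against 8327 of all 20740 genes. Such a share is not particular to this list. It was higher for heat shock chaperones (25 of 26) and S phase genes (37 of 40), and lower for developmental transcription factors (16 of 55). Among the 20, 1 gene had a wide promoter peak (5.0%, interval 0.127 to 24.9%, against 2.69% of all genes with a peak). Under the threshold stood those of Topors (652 bp), Senp1 (626 bp), Hira (587 bp) and Sumo2 (562 bp). Pml itself had no wide promoter peak, but a wide peak of 1361 bp lay 29.7 kb upstream of its start. Others of the list with a wide peak within 50 kb were Trp53, with 1 of 1027 bp centred 1.53 kb downstream of its start, and Daxx, with peaks 42.1 and 46.5 kb downstream. The nearer Daxx peak, of 821 bp, is the promoter peak of B3galt4, and the farther one, of 843 bp, is that of Rps18. Among heat shock chaperones, Hspa8 (981 bp) and Hspa9 (806 bp) were 2 of 25 genes with a peak, and among oxidative stress genes Txn1 (1082 bp) and Prdx1 (872 bp), thioredoxin and a peroxiredoxin, were 2 of 19. The master regulator of that response, Nfe2l2, had a peak of 687 bp. No gene of the 18 p53 targets with a promoter peak had a wide one, and their widest was Gadd45a at 505 bp.

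Growth, replication and chromatin genes had a few each. Ccnd1 (1040 bp), encoding cyclin D1, and Spry4 (934 bp), an inhibitor of FGF signalling, were 2 of 21 FGF, LIF and WNT response genes with a peak, and Pim3 (766 bp) and Axin2 (750 bp) were just under the threshold. Of 37 S phase genes with a peak, 2 had a wide one, among them Pcna (893 bp), the sliding clamp of replication. The centre of the Pcna peak has a near-identical copy elsewhere in the genome. For DNA repair, Xrcc4 (833 bp), Msh3 (826 bp) and Rif1 (812 bp) were 3 of 30. Chek1, at 795 bp, was next. In mitosis, Anln (1039 bp) was 1 of 25. Phc1 (1056 bp) and Rbbp4 (976 bp), of polycomb complexes, were 2 of 26 polycomb and trithorax genes, and Cbx5 and Cbx3 were 2 of 13 in the HP1 and H3K9 methylation list. Gapdh (1109 bp) and Eno1 (1046 bp) were 2 of 16 glycolysis genes with a peak. The Gapdh peak lay wholly downstream of the start, with its midpoint in an exon 1089 bp away. H2afx (995 bp), the gene of the DNA damage histone variant H2AX, was 1 of 15 histone-related genes outside the clusters, and Npat, a regulator of histone gene transcription, had 723 bp. Among nuclear noncoding and snoRNA host RNAs, Rnu7, Rnu11, Gas5 (1053 bp) and Malat1 (950 bp) were 4 of 23, and Neat1 had 598 bp. The peak counted for Gas5 begins past its start and is the promoter peak of Zbtb37. Numbered Zfp genes had 7 wide peaks among 226, led by Zfp131 and Zfp367 (1003 bp).

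In the 2-cell-like list, 4 of 22 genes had a promoter peak and 1 a wide one, that of Tcstv3 (3192 bp). The interval on 1 of 4 is 0.631 to 80.6%, against 2.69% of all genes with a peak. Developmental transcription factors had a peak at 16 of 55 and a wide one at 0. Liver and blood genes had a peak at 0 of 22, and olfactory receptors at 2 of 1086, of which 0 were wide.

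Among core pluripotency genes, 3 had a wide peak that touched the promoter window and 9 had one outside it within 50 kb. In the promoter window, Tdgf1 (1328 bp), the Nodal co-receptor, Sox2 (888 bp) and Rif1 (812 bp) were 3 of 19 with a peak. This is 15.8% (interval 3.38 to 39.6%), against 2.69% of all genes with a peak. Next in width came Nanog (737 bp), Klf2 (688 bp), Pou5f1 (671 bp) and Tbx3 (638 bp). The Tdgf1 peak, from 110947036 to 110948363, lay wholly upstream of the start at 110946158 on the minus strand and only its near end fell in the window. Outside the own promoter window but within 50 kb of the start, 9 of 24 genes (37.5%) had a wide peak, against 814 of all 20740 genes (3.92%). Nanog had one of 1041 bp centred 4.63 kb upstream, and Dppa5a one of 1098 bp at 6.72 kb upstream. Downstream of the start lay those of Utf1 (1098 bp at 6.47 kb), Fgf4 (1289 bp at 10.4 kb), which had no promoter peak, and Tbx3 (855 bp at 9.59 kb). The nearest protein-coding gene to the peak counted for Dppa5a is Ooep, and the peak counted for Utf1 lay at the start of Gm16201. Which gene these peaks belong to was not tested. Klf5, Prdm14, Zfp281 and Tdgf1 had peaks of 804 to 834 bp at 14.4 to 49.7 kb. The CpG observed/expected ratios of the 9 peaks ran from 0.0767 at Prdm14 to 0.663 at Tbx3, and 0 of the 9 had a near-identical copy. A wide peak of 807 bp also lay at the start of Mir290a and Mir290b, microRNAs of the cluster that embryonic stem cells express strongly.

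Other lists had smaller shares of genes with a wide peak within 50 kb. Glycolysis had 4 of 21, all on chromosome 6, at Slc2a3, Eno2, Tpi1 and Gapdh. The peak counted for Eno2 is that at Grcc10 and Rnu7, and that for Tpi1 is the promoter peak of Usp5 and Cdca3. Nuclear noncoding and snoRNA host RNAs had 5 of 26 (19.2%), PML body components 3 of 24 (12.5%), FGF, LIF and WNT response genes 2 of 26 (7.69%), at Spry2 and Notum, and developmental transcription factors 2 of 55 (3.64%). The peak counted for Notum is the promoter peak of Aspscr1. Lists of clustered genes share peaks, and the count for Eif4enif1 among translation factors comes from the Sfi1 locus described next. In all, the 347 wide peaks away from protein-coding promoters lay a median of 27.4 kb from the nearest protein-coding start, against 23.6 kb for the narrower peaks away from promoters.

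Most wide peaks stood alone. Linked at distances of up to 50 kb, they formed 436 loci, of which 387 held 1 wide peak, 37 held 2 and 12 held 3 or more. The 3 loci with the most held 38 wide peaks (7.21%). The first, chr11:3131877-3183643, lies in Sfi1, whose product is a centrosomal protein, and 21 of its 37 listed peaks were wide, with a median of 1531 bp and up to 2450 bp. Of these, 3 had a near-identical copy. That search used only the central 150 bp and the assembled chromosomes, so it cannot show that the other wide peaks there are single-copy sequence. The second, chr9:124422549-124492005 around Ppp2r3d near the end of chromosome 9, had 11 wide peaks among 48, of which 4 had a copy. The third was the U1 and U3 locus on chromosome 11. Without these 3 loci the share with another peak within 5 kb was 58.9% for wide and 46.4% for narrower peaks (log2 odds 0.72, Fisher's exact test, adjusted p = 2.91e-07), and the share at other gene starts was 11.5% and 4.66% (adjusted p = 2.35e-08).

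By windows of 1 Mb, 7 windows with 5 or more wide peaks held 62 of them (11.8%). The last listed windows of chromosomes 9 (12 wide of 77 peaks) and 10 (5 of 28) and a window near the end of chromosome 13 (7 of 67, with Nnt, Hmgcs1, Zfp131 and Nim1k) were among them. Per chromosome the wide share ran from 1.17% on chromosome 18 to 3.01% on chromosome 11, where 21 of 60 wide peaks belong to the Sfi1 locus.

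Some wide peaks with near-identical copies or masked over most of their length are named here from the 52 with a copy and the 68 with a repeat-masked centre. At the proximal end of chromosome 9, 3 wide peaks between 3001423 and 3025806, near Gm10722, Gm11168, Gm10717 and Gm10718, each had near-identical copies, and the widest of them (2899 bp, 97.9% masked) had 7. A peak of 1688 bp on chromosome 1 (101460056 to 101461743) was masked over its whole length, although the reads are stated to have been mapped to a repeat-masked genome. Among the widest with a copy were also peaks in Sfi1 (2402 bp) and at Gm11399 (1819 bp). What part multiply placed reads have in these peaks was not tested.

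Short sequence words were counted in the central 200 bp of wide and narrower peaks. Both strands were searched, and a match is not a binding site. The ETS core CCGGAAG was found in 7.78% of 180 wide promoter peaks (interval 4.32 to 12.7%), in 14.4% of 8318 narrower promoter peaks and in 7.59% of all promoters over the 200 bp before the start. The CGCG element TCTCGCGAG was in 3.33% of wide and 1.26% of narrower promoter peaks (0.627% of all promoters), the full octamer ATTTGCAT in 2.78% (interval 0.908 to 6.36%) and 0.842% (1.17%), its core TTTGCAT in 2.78% and 1.92% (2.92%), the GC box GGGCGG in 55.6% and 56.3% (38.1%), the CCAAT box in 28.9% and 24.2% (31.0%), and the E-box CACGTG in 7.78% and 7.08% (5.75%). Away from promoters, TATAAA was in 10.4% of 347 wide peaks (interval 7.37 to 14.1%) and 6.76% of narrower ones. The AP-1 word TGAGTCA was there in 2.88% and 3.93%, and the octamer core TTTGCAT in 6.63% and 7.76%. These shares were not tested.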

How the data were processed

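What was measured is ALaP-seq of 2 H2O2+ and 2 H2O2- samples. Per the series' design text, the authors trimmed reads with Trimmomatic, mapped them with Bowtie2 2.3.5.1 to repeat-masked mm10, and removed blacklisted and greylisted regions with bedtools. The deposited list gives a chromosome, start and end per peak and no score or signal. Not given in the sources used here are the peak caller, its threshold, the rule for merging replicates and the part of the controls. Depth is unknown. A caller that joins nearby windows can also set widths.

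The list was joined to GRCm38 (soft-masked, NCBI GRCm38.p6) with GENCODE M21 gene models, 1 start per gene, and RefSeq small RNA genes. Midpoint, central 200 bp (150 bp for copies) and gap to the next peak gave 10 features. CpG-island-like means at least 50% GC and CpG observed/expected of at least 0.6, masked means at least 50% of bases in lower case, and a copy is another hit at 95% identity over 80% of the query (minimap2 2.31). Fisher's exact tests (scipy 1.17.1) were two-sided, adjusted over the 10 features, with 0.5 added to each cell for log2 odds and 0.05 as the threshold, and the tests were tried on simulated data. Intervals on shares are Clopper-Pearson at 95% and reflect counting error alone. A gene has a promoter peak if a peak shares 1 bp with the 1 kb either side of its start.

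The members, the 25 gene lists and the 17 words were chosen with earlier results of these data known. Genes named are the widest peaks with and without copies, the widest at each list's promoters, the largest loci and those at the threshold. Gene pairs, small RNA classes, peaks within 50 kb and Mir290a were named after their values were seen. Alternatives varied the width and promoter thresholds, the comparison peaks, copies, dense windows, loci, histone windows and CpG criteria. Signal tracks were not analysed here, and some genes of the lists are not reported here.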

Additional observations from a re-analysis of the deposited data

How the results depend on the processing

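Of 122 recomputed values, 96 kept their direction and side of the threshold, 13 reversed, 7 became significant, 2 lost significance, and 4 counts moved. The higher shares at other gene starts and with another peak within 5 kb were called in every alternative run for them. Values here are log2 odds of wide over narrower peaks.

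With a threshold of 600 bp, which gave 1619 peaks and 751 genes, promoters (0.33), CpG-island-like centres (0.28) and divergent pairs (0.71) became significantly higher, exons (-0.38) and introns (-0.29) significantly lower, copies lost significance (0.15), and repeat-masked centres reversed (-0.0094). With 1000 bp, which gave 193 peaks and 77 genes, copies lost significance (0.84), and promoters (-0.0502), introns (0.16), CpG-island-like centres (-0.39) and divergent pairs (-0.0795) reversed without passing the threshold. Against narrower peaks of at least 200 bp, promoters (-0.13), introns (0.0812) and CpG-island-like centres (-0.26) reversed. CpG-island-like centres also reversed with neighbouring peaks as 1 locus (-0.078), over the central 90 bp (-0.19), at 0.75 observed/expected and 55% GC (-0.11) and among promoters alone (-0.34). Exons became significantly lower without copies (-0.73), divergent pairs higher with promoters of 500 bp (0.84), and introns reversed with promoters of 2 kb (0.0042). Apart from the sets of peaks that each setting changes, the cause was not tested. Leaving out the 3 largest loci or the small nuclear and nucleolar RNA starts, and distances from midpoint to midpoint, were added after seeing the data.

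No paired analysis was possible because the merged list holds no value per sample; leaving out a replicate was not possible for the same reason. The list has no heights, so no threshold on signal was tried, and the depth behind it is unknown.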
